A study of Mus musculus with 203 samples.

Results

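A set of 10 genes of the ETS family of transcription factors was followed in macrophages treated with IL4 and depleted of KDM1A: Spi1, which encodes PU.1, and Fli1, Elf1, Elf2, Elf4, Etv3, Etv6, Elk3, Gabpa and Erf. They were taken by gene symbol from both RNA-seq gene tables of the study, and 10 of 10 had a row among the 25094 genes of the RAW264.7 table and among the 16478 genes of the bone marrow-derived macrophage (BMDM) table. The rule that picked them used symbols and no measured value, although the set was proposed with earlier results of these data in view. The BMDM experiment covered 4 groups of C57BL/6 cells, WT and macrophage-specific Gps2 KO, without and with IL4, but its table holds the authors' own comparisons and no values per library that were used here, so every value below comes from RAW cells.

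ETS factors share a DNA-binding domain that reads a GGAA core, and the bases around that core, partner proteins and the amount of each factor decide which sites are bound. PU.1 is required for the macrophage lineage, opens macrophage enhancers together with C/EBP, IRF, RUNX and AP-1 factors, and IL4 signals through STAT6, which works at many of these enhancers. Other family members activate transcription (FLI1, the ELF factors, GABP), act with the serum response factor (ELK3) or are repressors (ERF, ETV3, ETV6).

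RAW264.7 (RAW) is a mouse macrophage cell line from BALB/c mice. The 4 groups of 4 libraries were shGFP control, shGFP with IL4, shKDM1A control and shKDM1A with IL4, with IL4 given at 20 ng/ml for 6 h. The shGFP and shKDM1A cells were both stable lines made by lentiviral delivery of a short hairpin RNA and drug selection, and 1 hairpin was used against Kdm1a, which encodes a histone H3 lysine demethylase, so that loss of KDM1A and other properties of that line cannot be told apart. The study's methods state for its experiments in general that replicates were biological, but what separates the 4 RNA-seq libraries of a group (culture, passage or day) is not given in the sources used here, and p-values measure only the spread between these libraries.

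Totals ranged from 17554721 to 27782568 tags per library. The deposited values are on a log2 scale that is moderated for low expression, and a difference between groups in these values is written as a log2 change, which understates the change of weakly expressed genes. The 4 libraries of shKDM1A cells with IL4 fell into pairs: replicates 1 and 3 differed by a median of 0.044 log2 units over genes and replicates 2 and 4 by 0.039, against 0.054 to 0.056 across the pairs and 0.036 to 0.049 in the other 3 groups. The genes whose IL4 response differed between the lines numbered 791, against 2282 without replicates 2 and 4 of this group and 348 without replicates 1 and 3. Control libraries varied along the same split. Deviations of shGFP control replicate 4 from its group mean correlated at 0.283 and 0.357 with replicates 1 and 3 of this group. With 2 and 4 they were -0.334 and -0.343. For shGFP control replicates 2 and 3 these ran from -0.249 to -0.210 and from 0.227 to 0.260. Replicate 1 of shKDM1A control went with 1 and 3 (0.273 and 0.119). Leaving out a pair does not remove this from the controls. What sets the pairs apart was not tested, and calls of ETS genes and their partners that changed when either pair was left out, an alternative chosen after seeing the data, are given beside the genes. Kdm1a itself lay between 11.13 and 11.23 in shGFP control libraries and between 10.23 and 10.36 in shKDM1A control libraries. Its log2 change in shKDM1A cells was -0.88 without IL4 (adjusted p = 5.6e-13) and -0.79 with IL4 (adjusted p = 2.2e-12), so the labels of the lines fit the targeted gene. The macrophage genes Lyz2, Cd14, Cd68 and Csf1r stood at or above the 98.7th percentile of tested genes per kilobase in shGFP control cells, whereas the T cell markers Cd3e, Cd3d, Cd4 and Cd8a, the B cell markers Cd79a and Ms4a1 and the fibroblast markers Col1a1, Col1a2 and Pdgfra did not reach the filter on low values. The other macrophage markers were lower, with Ptprc, Itgam and Adgre1 at the 83.5th, 73.6th and 60.6th percentiles. These are bulk libraries, in which fewer cells expressing a gene and less RNA per cell cannot be told apart.

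The DNA just upstream of the annotated starts is shown for genes on which the results turn: Spi1, the 3 members that were higher with IL4 in both lines (Erf, Elf4, Elk3), and Fli1, which was lower with IL4 in both. Windows of 250 bases on the coding strand were read from mm9, the build of the files. Capitals mark GAGGAA, the core letters of a PU.1-type site, or its reverse complement TTCCTC. For Spi1, whose whole window lies in exons of other annotated transcripts, the match with 10 bases on either side is shown (chr2:90936735-90936760, plus strand). The other stretches are chr9:32349038-32349287 for Fli1, chr7:26035781-26036027 for Erf, without the 3 bases next to the start that lie in an exon, chrX:45816310-45816559 for Elf4 and chr10:92773905-92774154 for Elk3, all on the minus strand.
Spi1: cagccccagtTTCCTCtgggcagggg
Fli1: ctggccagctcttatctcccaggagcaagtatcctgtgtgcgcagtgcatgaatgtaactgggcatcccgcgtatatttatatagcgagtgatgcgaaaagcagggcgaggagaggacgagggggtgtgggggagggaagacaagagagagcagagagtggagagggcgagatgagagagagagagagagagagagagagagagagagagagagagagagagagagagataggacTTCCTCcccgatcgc
Erf: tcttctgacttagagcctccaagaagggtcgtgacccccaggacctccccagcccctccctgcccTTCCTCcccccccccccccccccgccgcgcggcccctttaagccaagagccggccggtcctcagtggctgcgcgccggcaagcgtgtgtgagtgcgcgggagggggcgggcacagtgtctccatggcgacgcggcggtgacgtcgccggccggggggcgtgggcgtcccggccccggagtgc
Elf4: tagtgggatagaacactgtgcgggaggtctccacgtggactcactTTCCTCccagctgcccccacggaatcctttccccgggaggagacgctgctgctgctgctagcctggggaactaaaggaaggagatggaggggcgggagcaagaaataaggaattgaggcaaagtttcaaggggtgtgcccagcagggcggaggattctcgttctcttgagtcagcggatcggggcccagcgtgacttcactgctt
Elk3: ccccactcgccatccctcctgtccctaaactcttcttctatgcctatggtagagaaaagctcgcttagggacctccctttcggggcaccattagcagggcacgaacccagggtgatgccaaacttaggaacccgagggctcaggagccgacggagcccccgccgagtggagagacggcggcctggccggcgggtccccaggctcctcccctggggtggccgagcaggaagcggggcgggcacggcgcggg

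GAGGAA was found on either strand in the windows of 5 of the 10 genes (Spi1, Fli1, Elf4, Gabpa and Erf) and in 22.6% of the 12883 windows of tested genes. In the stretches above it is written as TTCCTC, with its leftmost letter at position -90 from the start that the gene table gives for Spi1, -15 from that of Fli1, -205 from that of Elf4 and -185 from that of Erf, and Elk3 had none. These positions depend on the annotation: the nearest GENCODE start lay 102 bases from the table's start for Spi1, 63 for Fli1, 24 for Elk3 and 3 for Erf, and at the same base for the other 6 genes. The windows of Spi1 and Gabpa lay wholly in annotated exons (250 of 250 bases), and that of Etv3 for 171 bases. CCGGAA, the core letters of a GABP-type site, was found in 1 of the 10 (Gabpa itself, at -92) against 22.7% of all windows. TGANTCA, an AP-1-type palindrome, was found in 2 (Elf1 and Elf4) against 4.0%. GAGGAA and CCGGAA share the letters GGAA but cannot match at the same place. These are letter matches and not measured binding.

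All 10 genes passed the filter on low values, a deposited value of at least 1 in at least 4 of the 16 RAW libraries, as did 12905 of the 25094 genes of the table. Of 16 other ETS genes that were looked up, 6 passed (Ets2, Elk1, Elk4, Etv1, Etv4 and Etv5). Ets1, Erg, Fev, Elf3, Elf5, Ehf, Spdef, Spib, Spic and Etv2 did not. Spib and Spic, the nearest relatives of PU.1, were thus below the filter.

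Per kilobase of exon, Spi1 was far above every other member. Its level in shGFP control cells was 12.61 ± 0.06 on the log2 per kilobase scale (SD, n = 4), at the 98.1st percentile of tested genes, and that of Elf1, the next member, was 9.07 ± 0.06, which is 3.54 log2 units lower. Below Elf1 came Gabpa at 8.81 ± 0.03, Erf at 8.75 ± 0.01, Fli1 at 8.51 ± 0.04, Elk3 and Etv3 both at 8.37, Elf2 at 7.87 ± 0.03, Etv6 at 7.62 ± 0.05 and Elf4 at 7.41 ± 0.03. In that group only the neighbours Elk3 and Etv3 had overlapping ranges of the 4 libraries. The level of Elf4, the lowest, was at the 46.7th percentile of tested genes.

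**Figure D1:**
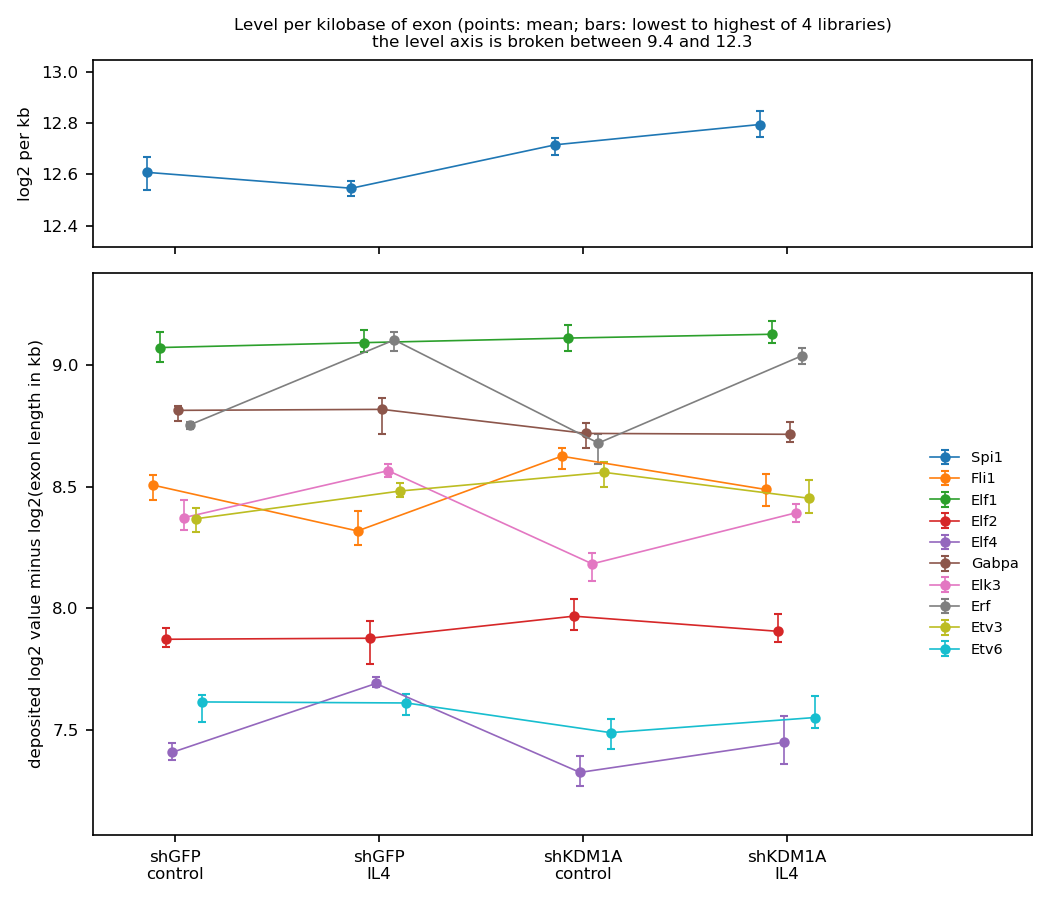
Level of each of the 10 ETS genes per kilobase of exon (deposited log2 value minus log2 of exon length in kilobases) in the 4 RAW groups, with points at the mean of 4 libraries, bars from the lowest to the highest library, lines joining the means of a gene, and a broken axis. Spi1 stays above 12.5 in every group while the other 9 lie between 7.3 and 9.2, and Erf moves up to the level of Elf1 with IL4 in shGFP cells.

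The order changed with the group in the middle and at the bottom, and not at the top. With IL4, Erf moved up 2 places to 9.10 ± 0.04 in shGFP cells, where its range overlapped that of Elf1 at 9.09 ± 0.04. In shKDM1A cells with IL4, Erf at 9.04 ± 0.03 came next after Elf1 at 9.13 ± 0.04, without overlap. Fli1 was above Elk3 and Etv3 in shGFP control cells and below both in shGFP cells with IL4, at 8.32 ± 0.06. In shKDM1A control cells Gabpa, Erf, Fli1 and Etv3, at 8.72, 8.68, 8.63 and 8.56, each overlapped the next in order. Elf4 rose above Etv6 only in shGFP cells with IL4, at 7.69 ± 0.02 against 7.61 ± 0.04, with ranges that did not overlap.

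**Figure D2:**
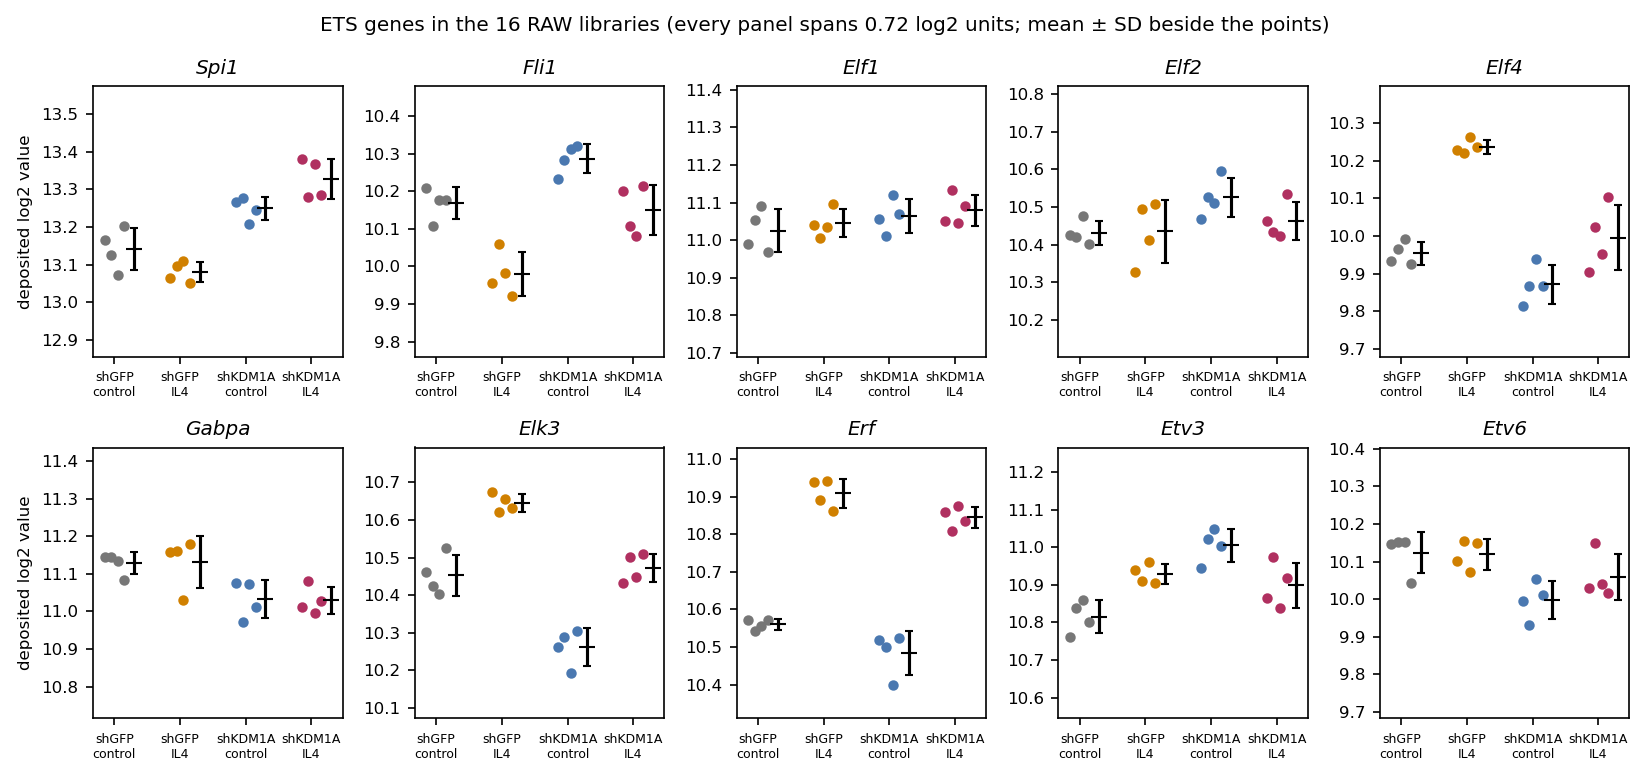
Deposited log2 value of the 10 ETS genes in the 16 RAW libraries, 4 per group, with the mean and SD beside the points, each panel spanning 0.72 log2 units. Erf and Elk3 separate by IL4 in both lines, Spi1 separates by hairpin among IL4-treated cells, and Elf1 and Elf2 overlap in all groups.

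A set of 4 comparisons and their difference were made, and counts of changed members are given beside the share of all 12905 tested genes that changed, both by limma with a Benjamini-Hochberg adjusted p under 0.05. With IL4 in shGFP cells, 5 of 10 members changed (26.9% of all genes): Erf, Elf4, Elk3 and Etv3 rose (4, against 13.1% of all genes) and Fli1 fell (1, against 13.7%). With IL4 in shKDM1A cells, 5 of 10 changed (27.1% of all genes), Erf, Elk3 and Elf4 rising (13.6%) and Fli1 and Etv3 falling (13.5%). In shKDM1A against shGFP cells without IL4, 7 of 10 changed (38.2% of all genes), with Etv3, Fli1 and Spi1 higher (19.7%) and Elk3, Etv6, Gabpa and Erf lower (18.4%). With IL4, 5 of 10 differed between the lines (40.7% of all genes), with Spi1 and Fli1 higher (20.9%) and Elf4, Elk3 and Gabpa lower (19.8%). Elf1 and Elf2 passed the test in none of the comparisons.

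The changes were small. The median log2 change of the 10 members was 0.01, 0.04, -0.02 and -0.04 in these comparisons, in that order, and the median over all genes tested lay between -0.0027 and -0.0005. With an absolute log2 change over 0.5 also required, 0 of the 10 members was left in each comparison, against 174, 141, 337 and 319 of all genes. The groups of 4 libraries did not overlap for 5 members with IL4 in shGFP cells (28.3% of all genes), for 4 with IL4 in shKDM1A cells (25.7%), for 6 between the lines without IL4 (37.4%) and for 4 with IL4 (36.4%). Each group of libraries enters more than 1 of these comparisons, so their values are set side by side and not correlated.

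**Figure D3:**
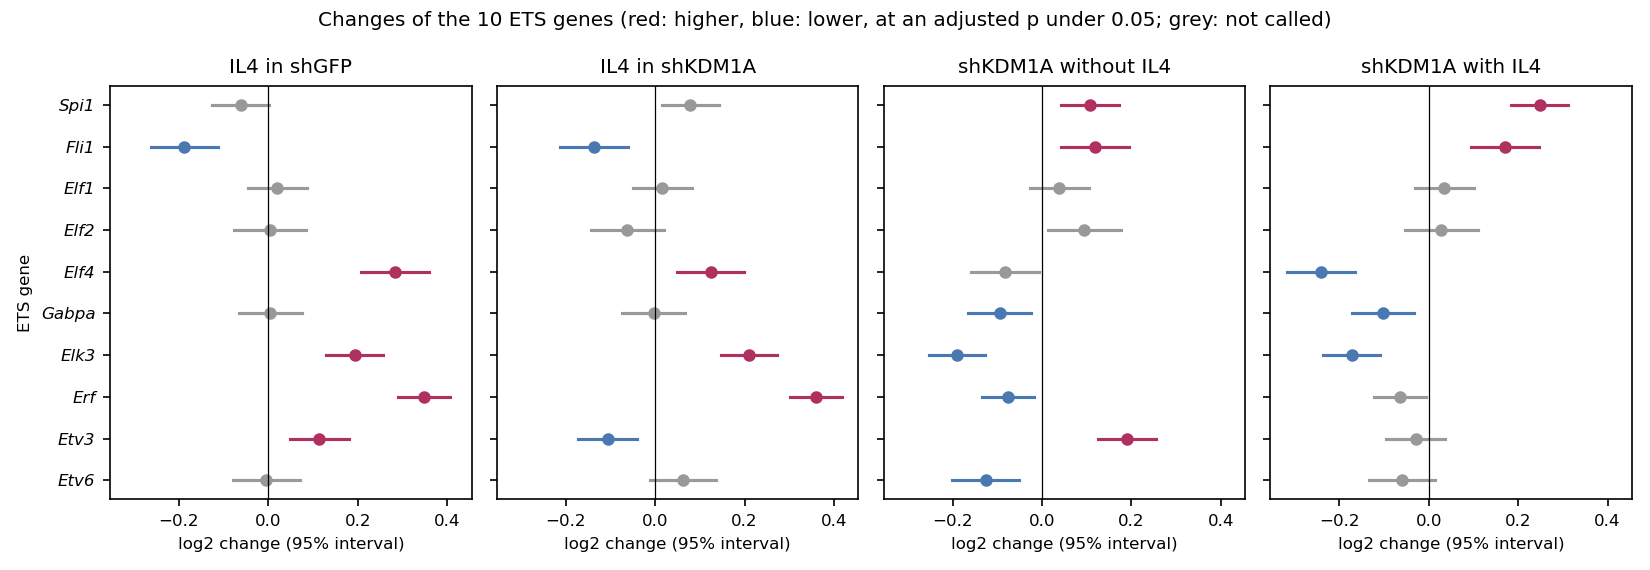
Log2 change of each ETS gene with its 95% interval in the 4 comparisons, red where higher and blue where lower at an adjusted p under 0.05, grey otherwise. The largest change of the set is that of Erf with IL4, at 0.35 in shGFP and 0.36 in shKDM1A cells.

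Spi1 (chr2:90936835-90955916, plus strand), the gene of PU.1, was higher in shKDM1A than in shGFP cells with either treatment. Its values were 13.17, 13.13, 13.07 and 13.20 in the 4 shGFP control libraries and 13.07, 13.10, 13.11 and 13.05 in those with IL4. In shKDM1A cells they were 13.27, 13.28, 13.21 and 13.25 without IL4 and 13.38, 13.28, 13.37 and 13.29 with IL4. All shKDM1A libraries thus lay above all shGFP libraries of the same treatment, and IL4-treated shGFP libraries overlapped their controls while IL4-treated shKDM1A libraries lay just above theirs. The log2 change in shKDM1A cells was 0.11 without IL4 (SE 0.03, adjusted p = 0.0096), which is 7.73% more, and 0.25 with IL4 (SE 0.03, adjusted p = 5.5e-06), which is 18.8% more.

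The change of Spi1 with IL4 did not pass the threshold in either line. The log2 change was -0.06 in shGFP cells (SE 0.03, adjusted p = 0.15) and 0.08 in shKDM1A cells (SE 0.03, adjusted p = 0.064). Their difference of 0.14 (SE 0.04, adjusted p = 0.061) did not pass either. These were close to the threshold: without shGFP control replicate 3 the change in shGFP cells was -0.08 (adjusted p = 0.049), the change in shKDM1A cells had adjusted p-values of 0.035 to 0.045 without that library or without shKDM1A IL4 replicate 2 or 4, and without the same 3 libraries in turn the difference was 0.15 to 0.16 with adjusted p-values of 0.028 to 0.042. The change in shKDM1A cells also passed with median centring (0.09, adjusted p = 0.046) and with a trended prior variance (adjusted p = 0.03), and the latter also let the difference pass (adjusted p = 0.025).

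Spi1 moved with the pairs of IL4-treated shKDM1A libraries, at 13.38 and 13.37 in replicates 1 and 3 and 13.28 and 13.29 in replicates 2 and 4. Without replicates 2 and 4, the change with IL4 in shKDM1A cells was 0.12 (adjusted p = 0.01) and the difference of responses 0.19 (adjusted p = 0.0095). Without replicates 1 and 3 these were 0.03 (adjusted p = 0.56) and 0.09 (adjusted p = 0.28). The change between the lines with IL4 passed either way, at 0.29 (adjusted p = 6.2e-06) and 0.20 (adjusted p = 0.00023).

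Fli1 (chr9:32229789-32349037, minus strand), an activator of blood and endothelial genes, fell with IL4 in both lines and was higher in shKDM1A cells with either treatment. Its values were 10.21, 10.11, 10.18 and 10.18 in shGFP control libraries and 9.96, 10.06, 9.98 and 9.92 with IL4. The shKDM1A libraries held 10.23, 10.28, 10.31 and 10.32 without IL4 and 10.20, 10.11, 10.08 and 10.21 with IL4. No library with IL4 reached the range of its own control group. Fli1 fell with IL4 by 0.19 on the log2 scale in shGFP cells (SE 0.04, adjusted p = 0.00076) and by 0.14 in shKDM1A cells (SE 0.04, adjusted p = 0.0083). It was higher in shKDM1A cells by 0.12 without IL4 (SE 0.04, adjusted p = 0.014) and by 0.17 with IL4 (SE 0.04, adjusted p = 0.0011). Without shGFP control replicate 2 the change of 0.10 between the lines without IL4 had an adjusted p of 0.05 and no longer passed. The endothelial marker Cdh5 was below the filter and Pecam1 stood at the 1.27th percentile per kilobase.

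Elf4 (chrX:45764226-45816309, minus strand), an ELF factor known from innate immune and lymphoid cells, rose with IL4 and was lower in IL4-treated shKDM1A cells. It stood at 9.93, 9.96, 9.99 and 9.92 in shGFP control libraries and at 10.23, 10.22, 10.26 and 10.24 with IL4. In shKDM1A cells it stood at 9.81, 9.87, 9.94 and 9.87 without IL4 and at 9.90, 10.02, 9.95 and 10.10 with IL4. The shGFP libraries with IL4 lay above all 12 others, and the shKDM1A libraries with IL4 overlapped their controls. The log2 change with IL4 was 0.28 in shGFP cells (SE 0.04, adjusted p = 1.5e-05), or 21.7% more, and 0.12 in shKDM1A cells (SE 0.04, adjusted p = 0.016), or 8.96% more. The difference of these responses, -0.16 (SE 0.05, adjusted p = 0.072), did not pass the threshold. Between the lines, the log2 change was -0.24 with IL4 (SE 0.04, adjusted p = 4.8e-05) and -0.08 without IL4 (SE 0.04, adjusted p = 0.085).

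Single libraries decided some of these calls. Without shKDM1A control replicate 1, the rise of Elf4 in shKDM1A cells was 0.10 (adjusted p = 0.056). With only the 2 groups compared in the model it had an adjusted p of 0.074. Without shKDM1A IL4 replicate 4, the difference of IL4 responses was -0.20 (adjusted p = 0.013). The change between the lines without IL4 had an adjusted p of 0.039 without shKDM1A control replicate 3 and of 0.036 without shKDM1A IL4 replicate 4, and of 0.046 with only the 2 groups compared in the model. Elf4 also moved with the pairs of IL4-treated shKDM1A libraries. Without replicates 2 and 4 of that group its rise there was 0.06 (adjusted p = 0.21) and the difference of responses -0.23 (adjusted p = 0.0029), and without replicates 1 and 3 they were 0.19 (adjusted p = 0.00073) and -0.09 (adjusted p = 0.31). With either pair left out, the change between the lines without IL4 passed (adjusted p = 0.020 and 0.026).

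Elf1 (chr14:79915481-79982298, plus strand) and Elf2 (chr3:51056642-51144566, minus strand), ELF factors expressed in many blood cells, passed the test in no comparison, though Elf2 was near the threshold in 1. Elf1 lay between 10.97 and 11.13 over all 16 libraries, and its log2 changes in the 4 comparisons were 0.02, 0.02, 0.04 and 0.03 with 95% intervals that stayed within -0.05 to 0.11. Elf2 lay between 10.33 and 10.60. Its change between the lines without IL4 was 0.09 (SE 0.04, adjusted p = 0.061), and without shKDM1A control replicate 1 or shGFP IL4 replicate 1 it was 0.11 (adjusted p = 0.04) or 0.09 (adjusted p = 0.03). It also passed with only the 2 groups compared in the model (adjusted p = 0.027), with the replicate block (adjusted p = 0.043) and with a trended prior variance (adjusted p = 0.045). A weakly expressed gene on the other strand, 4930577N17Rik, lies within Elf2, and the annotated exons of these genes share 0 bases.

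Gabpa (chr16:84835369-84864023, plus strand) encodes the DNA-binding subunit of GABP, a regulator of mitochondrial and housekeeping genes. Its 16 values lay between 10.97 and 11.18, and IL4 changed it by 0.00 in both lines (adjusted p = 0.95 and 0.96). It was lower in shKDM1A cells, at -0.09 without IL4 (SE 0.03, adjusted p = 0.033) and -0.10 with IL4 (SE 0.03, adjusted p = 0.021). Both calls ended when 1 library was left out: shGFP control replicate 1, 2 or 3 or shKDM1A control replicate 2 or 4 without IL4 (adjusted p = 0.065 to 0.11), and shGFP IL4 replicate 1, 2 or 4 or shKDM1A IL4 replicate 3 with IL4 (adjusted p = 0.057 to 0.067). The latter was -0.08 (adjusted p = 0.17) without replicates 1 and 3 of IL4-treated shKDM1A cells. Gabpa shares 397 exon bases with Atp5j, which lies head to head on the other strand at a mean value of 11.55, and reads were counted on both strands, so its values are uncertain.

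Among genes of factors that repress, Erf (chr7:26027579-26035777, minus strand), named for its repression of ETS2, rose with IL4 in both lines and changed more than any other member. Its values were 10.57, 10.54, 10.56 and 10.57 in shGFP control libraries and 10.94, 10.89, 10.94 and 10.86 with IL4. In shKDM1A cells they were 10.52, 10.50, 10.40 and 10.52 without IL4 and 10.86, 10.81, 10.88 and 10.83 with IL4. All 8 libraries with IL4 lay above all 8 without it. The log2 change was 0.35 in shGFP cells (SE 0.03, adjusted p = 6.0e-08), or 27.3% more, and 0.36 in shKDM1A cells (SE 0.03, adjusted p = 4.5e-08), or 28.3% more. The difference of these responses was 0.01 with a 95% interval of -0.07 to 0.09.

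Between the lines Erf differed little. The log2 change in shKDM1A cells was -0.08 without IL4 (SE 0.03, adjusted p = 0.040) and -0.06 with IL4 (SE 0.03, adjusted p = 0.075). The first of these calls ended when shGFP control replicate 1, 3 or 4 or shKDM1A control replicate 2 or 3 was left out (adjusted p = 0.055 to 0.14), with only the 2 groups compared in the model (adjusted p = 0.065), with the replicate block (adjusted p = 0.054) and without the filter (adjusted p = 0.051). The second passed without shGFP IL4 replicate 4 or shKDM1A control replicate 3 (adjusted p = 0.04 and 0.028) and with quantile normalization (adjusted p = 0.041).

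Elk3 (chr10:92710161-92773904, minus strand), a partner of the serum response factor that represses until it is phosphorylated, also rose with IL4 in both lines and was lower in shKDM1A cells with either treatment. Its values were 10.46, 10.42, 10.40 and 10.52 in shGFP control libraries and 10.67, 10.62, 10.66 and 10.63 with IL4. In shKDM1A cells they were 10.26, 10.29, 10.19 and 10.31 without IL4 and 10.43, 10.50, 10.45 and 10.51 with IL4. None of the groups compared overlapped, and shKDM1A cells with IL4 stood in the range of shGFP cells without it. IL4 changed Elk3 by 0.19 in shGFP cells (SE 0.03, adjusted p = 0.00012) and by 0.21 in shKDM1A cells (SE 0.03, adjusted p = 5.5e-05), with a difference of 0.02 (95% interval -0.07 to 0.11). The log2 change in shKDM1A cells was -0.19 without IL4 (SE 0.03, adjusted p = 8.9e-05) and -0.17 with IL4 (SE 0.03, adjusted p = 0.00022). No alternative that was run ended a call of Elk3, other than the requirement of an absolute change over 0.5.

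Etv3 (chr3:87329500-87344080, plus strand), a repressor tied to the growth arrest of differentiating macrophages, was the 1 member whose IL4 response differed between the lines past the threshold. Its values were 10.76, 10.84, 10.86 and 10.80 in shGFP control libraries and 10.94, 10.91, 10.96 and 10.91 with IL4. In shKDM1A cells they were 10.95, 11.02, 11.05 and 11.00 without IL4 and 10.87, 10.97, 10.84 and 10.92 with IL4. The shGFP libraries rose without overlap, and the shKDM1A libraries with IL4 ran lower than their controls but overlapped them. IL4 changed Etv3 by 0.11 in shGFP cells (SE 0.03, adjusted p = 0.012) and by -0.11 in shKDM1A cells (SE 0.03, adjusted p = 0.017). The difference of these responses was -0.22 (SE 0.04, adjusted p = 0.0076), and 6.13% of all genes passed that test, 2.57% with a lower and 3.56% with a higher response in shKDM1A cells.

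Without IL4, Etv3 was higher in shKDM1A than in shGFP cells by 0.19 (SE 0.03, adjusted p = 0.00012), and with IL4 the log2 change was -0.03 (SE 0.03, adjusted p = 0.48). Its fall with IL4 in shKDM1A cells was the less firm of these results. Without shKDM1A control replicate 3 or shKDM1A IL4 replicate 1 or 3 it was -0.09 each time with adjusted p-values of 0.052 to 0.062, and with only the 2 groups compared in the model the adjusted p was 0.053. The difference of the IL4 responses passed whichever of the 16 libraries was left out. Without replicates 2 and 4 of IL4-treated shKDM1A cells it was -0.27 (adjusted p = 0.0015), and without replicates 1 and 3 it was -0.17 (adjusted p = 0.048), where the fall in shKDM1A cells was -0.06 (adjusted p = 0.26).

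Etv6 (chr6:133985718-134220165, plus strand), a repressor needed in blood stem cells, lay between 9.93 and 10.16 in all libraries. It was lower in shKDM1A cells without IL4 at -0.13 (SE 0.03, adjusted p = 0.0089), where the groups overlapped by 1 low shGFP library at 10.04. With IL4 the log2 change was -0.06 (SE 0.03, adjusted p = 0.19), and without shKDM1A IL4 replicate 2 it was -0.09 (adjusted p = 0.041). IL4 changed it by 0.00 in shGFP cells (adjusted p = 0.95) and 0.06 in shKDM1A cells (adjusted p = 0.22).

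The difference of the IL4 responses was tested in all 10 members. Etv3 passed (6.13% of all genes did), and 3 had an unadjusted p under 0.05 (Etv3, Spi1 and Elf4), as did 2916 of all 12905 genes tested. For the other 7 the estimate lay between -0.07 (Elf2) and 0.07 (Etv6), and the 95% intervals of all 7 stayed within -0.18 and 0.17. At this spread, differences in response of the size seen for Etv3 are outside those intervals.

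Of the other ETS genes, Ets2, a factor downstream of RAS and CSF1 signalling, changed most. It lay between 11.59 and 11.70 in shGFP control libraries and between 10.92 and 11.04 with IL4, a log2 change of -0.67 (SE 0.03, adjusted p = 3.9e-11) which is a percent change of -37.3, and it fell by 0.56 in shKDM1A cells (SE 0.03, adjusted p = 4.5e-10). In shKDM1A cells it was lower without IL4 at -0.14 (adjusted p = 0.0013). Over the 6 other ETS genes tested, 2 rose and 1 fell with IL4 in shGFP cells (26.9% of all genes passed) and 0 rose and 2 fell in shKDM1A cells (27.1%). Between the lines, 1 was higher and 1 lower in shKDM1A cells without IL4 (38.2%), and 1 was higher and 4 lower with IL4 (40.7%). Without the filter, 1 passed in the first of these comparisons and 3 in the last, and with only the 2 groups compared in the model 2 passed in the last. Their median log2 changes were 0.02, -0.12, -0.04 and -0.08.

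Elk1, like Elk3 a partner of the serum response factor, was higher in shKDM1A cells at 0.29 without IL4 (SE 0.04, adjusted p = 1.0e-05) and 0.11 with IL4 (adjusted p = 0.022), while Elk3 was lower in both. Elk1 and Etv1 rose with IL4 in shGFP cells by 0.11 (adjusted p = 0.042) and 0.13 (adjusted p = 0.049), and both calls ended when libraries were left out, for Elk1 with any of 8 and for Etv1 with any of 12 of the 16. With IL4, Etv1 at -0.18 (adjusted p = 0.0038), Etv4 at -0.07 (adjusted p = 0.0048), Elk4 at -0.24 (adjusted p = 0.031) and Etv5 at -0.09 (adjusted p = 0.037) were lower in shKDM1A cells. Of these, the calls of Elk1, Elk4 and Etv5 ended without any of 3, 5 and 6 libraries. Etv5 fell with IL4 in shKDM1A cells by 0.17 (adjusted p = 0.0011), and its difference of IL4 responses, -0.17 (adjusted p = 0.038), ended without any of 11 libraries. Without replicates 1 and 3 of IL4-treated shKDM1A cells, Elk1, Elk4 and Etv5 did not differ past the threshold between the lines with IL4 (adjusted p = 0.15, 0.60 and 0.28), nor did the responses of Etv5 (adjusted p = 0.17). Elk1 then passed with IL4 in shKDM1A cells at -0.11 (adjusted p = 0.042) and in the difference of responses at -0.22 (adjusted p = 0.022). Without replicates 2 and 4, Elk4 passed with IL4 in shKDM1A cells at -0.36 (adjusted p = 0.00075), and the differences of responses of Elk4 at -0.39 (adjusted p = 0.0066) and Etv1 at -0.24 (adjusted p = 0.010) passed.

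A list of 20 genes known as PU.1 targets in macrophages, listed from general knowledge, with earlier results of these data known, and all tested, moved in both directions. With IL4 in shGFP cells 9 rose (13.1% of all genes) and 8 fell (13.7%), and in shKDM1A cells 9 rose (13.6%) and 5 fell (13.5%). In shKDM1A against shGFP cells 8 were higher (19.7%) and 7 lower (18.4%) without IL4, and 9 were higher (20.9%) and 6 lower (19.8%) with IL4. Some of these calls depended on the scaling. With quantile normalization 13 targets passed without IL4, where Lyz2 went from 0.26 to 0. With IL4 14 then passed, where Csf1r went from 0.22 (adjusted p = 9.7e-08) to -0.0071 (adjusted p = 0.84) and Ncf1 joined the lower targets at -0.09 (adjusted p = 0.0028). For IL4 in shKDM1A cells, the fall of Lyz2 no longer passed (adjusted p = 0.36) and that of Ncf1 did (adjusted p = 0.046). Lyz2 stood at the 99.98th percentile of tested genes by value in shGFP control cells. Quantile normalization gives a gene that keeps its rank the same value in every library, so the 0 of Lyz2 does not test its call. As reported, the median log2 change of the 20 targets was 0.01 in the first 3 comparisons and 0.03 in the last.

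With IL4, Mrc1, the mannose receptor and a marker of IL4-activated macrophages, rose by 1.32 in shGFP cells (SE 0.03, adjusted p = 3.1e-14) and by 0.50 in shKDM1A cells (SE 0.03, adjusted p = 5.3e-09). Csf2rb, a receptor chain for GM-CSF, rose by 0.36 in shGFP cells (adjusted p = 9.2e-06), and Msr1, a scavenger receptor, by 0.30 in shKDM1A cells (adjusted p = 1.7e-09). Cd14, the co-receptor for lipopolysaccharide, fell by 0.93 in shGFP cells (adjusted p = 3.3e-14) and by 0.45 in shKDM1A cells (adjusted p = 3.0e-10). Cybb, a subunit of the phagocyte NADPH oxidase, fell by 0.62 (adjusted p = 8.0e-10) and 0.58 (adjusted p = 2.4e-09).

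Between the lines without IL4, the integrin genes Itgam and Itgb2 were higher in shKDM1A cells at 0.41 (adjusted p = 2.4e-08) and 0.36 (adjusted p = 3.3e-09), and the G-CSF receptor gene Csf3r and the Fc receptor gene Fcgr1 were lower at -0.46 (adjusted p = 5.6e-09) and -0.45 (adjusted p = 6.7e-09). With IL4, Lyz2, the macrophage lysozyme, and Cd14 were higher at 0.68 (adjusted p = 2.4e-11) and 0.40 (adjusted p = 7.3e-10), and Mrc1 and Csf3r were lower at -0.83 (adjusted p = 5.3e-12) and -0.56 (adjusted p = 5.2e-10). Lyz2 is among the most abundant transcripts, and with quantile normalization its value was 0.28. The IL4 response differed between the lines for 7 of the 20 targets (6.13% of all genes), being higher in shKDM1A cells for 4 (3.56%) and lower for 3 (2.57%), with Cd14 at 0.48 (adjusted p = 2.8e-07), Lyz2 at 0.42 (adjusted p = 2.9e-05), Mrc1 at -0.82 (adjusted p = 3.6e-08) and Csf2rb at -0.31 (adjusted p = 0.0078). Without replicates 2 and 4 of IL4-treated shKDM1A cells 8 targets passed (2282 of all genes), and without replicates 1 and 3 there were 6 (348). Csf2rb lay at 9.17 and 9.27 in replicates 1 and 3 and at 9.40 and 9.38 in 2 and 4. With quantile normalization 8 passed (773 of all genes), with Lyz2 at 0.28 and Csf1r joining at -0.16 (adjusted p = 0.0082).

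**Figure D4:**
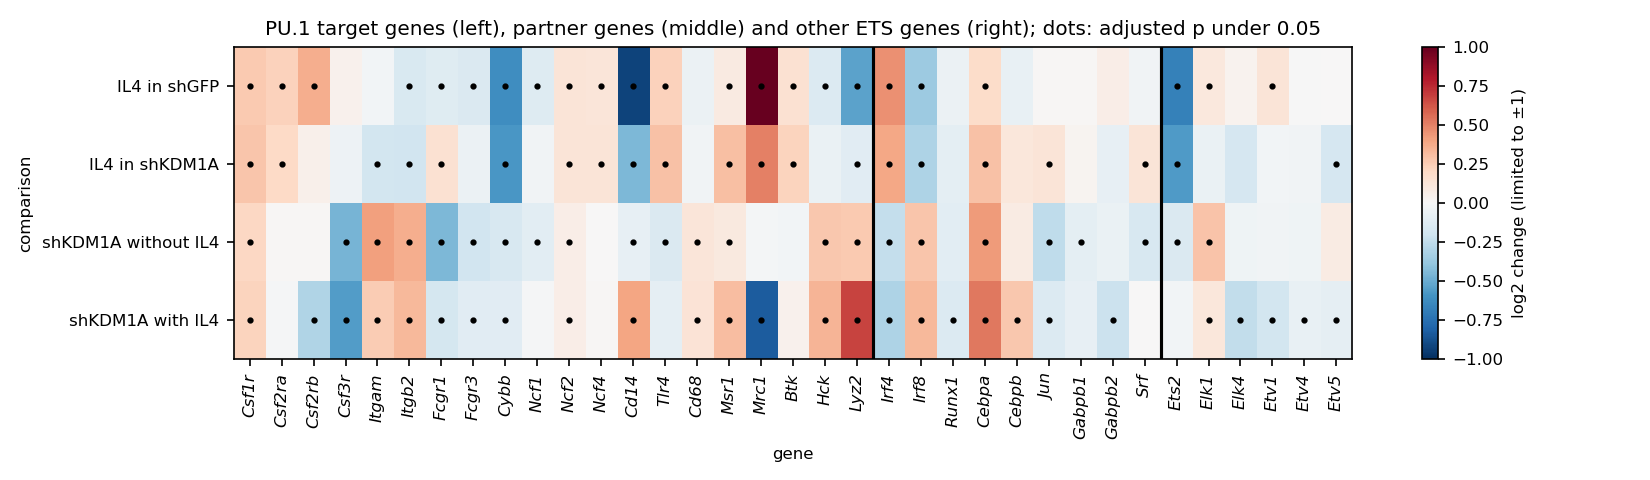
Log2 change of 20 PU.1 target genes, 9 partner genes and 6 other ETS genes (columns) in the 4 comparisons (rows), from blue (lower) to red (higher), with the scale limited to ±1 and a dot where the adjusted p is under 0.05. Mrc1 rises with IL4 and is lower in IL4-treated shKDM1A cells, Cebpa is higher in every row, and Ets2 falls with IL4 in both lines.

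Of 9 genes of factors that bind beside or with ETS proteins, 3 passed with IL4 in shGFP cells (26.9% of all genes) and 5 in shKDM1A cells (27.1%). Between the lines 6 passed without IL4 (38.2%) and 7 with IL4 (40.7%), and 1 passed for the difference of responses (6.13%). Cebpa, which encodes a C/EBP factor that works with PU.1, lay between 10.02 and 10.11 in shGFP control libraries and between 10.77 and 10.81 in shKDM1A libraries with IL4. It rose with IL4 by 0.19 in shGFP cells (adjusted p = 4.1e-05) and 0.29 in shKDM1A cells (adjusted p = 2.9e-07), and it was higher in shKDM1A cells by 0.43 without IL4 (adjusted p = 1.3e-09) and 0.53 with IL4 (adjusted p = 8.7e-11). Cebpb was higher in shKDM1A cells with IL4 at 0.27 (adjusted p = 0.00043).

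The IRF partners of PU.1 moved in opposite directions. Irf4 rose with IL4 by 0.45 in shGFP cells (adjusted p = 8.9e-07) and 0.39 in shKDM1A cells (adjusted p = 6.0e-06), and was lower in shKDM1A cells at -0.24 without IL4 (adjusted p = 0.00043) and -0.31 with IL4 (adjusted p = 3.9e-05). Irf8 fell with IL4 by 0.36 (adjusted p = 1.7e-07) and 0.31 (adjusted p = 1.2e-06), and was higher in shKDM1A cells at 0.27 (adjusted p = 2.8e-06) and 0.33 (adjusted p = 3.8e-07). For either gene the groups of libraries did not overlap in any of the 4 comparisons.

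Srf, the partner of ELK1 and ELK3, was lower in shKDM1A cells without IL4 at -0.16 (adjusted p = 0.00033) and rose with IL4 in that line by 0.13 (adjusted p = 0.0032). The difference of its responses, 0.17 (adjusted p = 0.026), ended without shGFP IL4 replicate 2 or shKDM1A control replicate 4 (adjusted p = 0.052 and 0.054). Jun, an AP-1 gene, was lower in shKDM1A cells at -0.26 (adjusted p = 5.2e-06) and -0.13 (adjusted p = 0.0026) and rose with IL4 in that line by 0.13 (adjusted p = 0.0040). Gabpb1 and Gabpb2 encode the subunits that GABPA needs to activate. Gabpb1 was lower in shKDM1A cells without IL4 at -0.10 (adjusted p = 0.024), a call that ended without shGFP control replicate 4 or shKDM1A control replicate 2 or 3 (adjusted p = 0.054 to 0.071). With IL4 it passed only without shGFP IL4 replicate 4 or shKDM1A IL4 replicate 3 (adjusted p = 0.046 and 0.010) or with quantile normalization (adjusted p = 0.047). Gabpb2 was lower with IL4 in shKDM1A cells at -0.21 (adjusted p = 0.0025). Runx1 was lower in shKDM1A cells with IL4 at -0.14 (adjusted p = 0.031), which ended without shGFP IL4 replicate 3 or 4 or shKDM1A IL4 replicate 1 (adjusted p = 0.088 to 0.11). Without replicates 1 and 3 of IL4-treated shKDM1A cells, Gabpb2 and Runx1 between the lines with IL4 (adjusted p = 0.067 and 0.092), Jun with IL4 in shKDM1A cells (adjusted p = 0.058) and the difference of responses of Srf (adjusted p = 0.081) did not pass. Without replicates 2 and 4, Runx1 did not pass (adjusted p = 0.064), and Gabpb2 also passed with IL4 in shKDM1A cells at -0.17 (adjusted p = 0.011) and in the difference at -0.24 (adjusted p = 0.014).

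The genes most like Spi1 and Erf over the 16 libraries were found by the root mean square (RMS) difference of values centred on each gene's mean. For Spi1, whose own values had an RMS of 0.10 around their mean, they were Mapk3 at 0.028, Prelid1 at 0.028 and Mtch1 at 0.030, against a median of 0.12 over all other genes. Mapk3 stood at -0.06, -0.11, 0.04 and 0.13 around its mean in shGFP control, shGFP IL4, shKDM1A control and shKDM1A IL4 cells. For Erf, with an RMS of 0.18 around its mean, they included Bin2 at 0.035 and Myo1c at 0.045, against a median of 0.19. Bin2 stood at -0.13, 0.23, -0.21 and 0.12 in the same groups.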

How the data were processed

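RNA-seq of RAW264.7 cells was used, in 4 groups of 4 libraries assigned by their titles. The authors aligned reads to mm9, counted them on exons of RefSeq genes on both strands with HOMER (condensed to genes) and ran DESeq2. The deposited RAW values are log2 values whose transformation is not given in the sources used here. They are moderated for low expression, so no count model was fitted, and no pseudocount was added. The authors' own fold changes and p-values, in both tables, were not used, and the BMDM table holds no other values. Samples of other assays were not analysed here.

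The 12905 of 25094 genes reaching a value of 1 in 4 or more libraries were fitted with limma 3.58.1 in R 4.3.3 (lmFit and eBayes, 4 group means, all libraries sharing 1 estimate of spread), with Benjamini-Hochberg adjustment per comparison. On simulated data for IL4 in shGFP cells the step recovered 200 of 200 changed genes with 14 false calls among 12905 genes. This checks that the step works and is not a measure of recovery for changes as small as those of the members. Nor is it a measure of false calls where libraries of a group fall into pairs. Levels between genes were compared after subtracting log2 of the exon length in kilobases. Upstream windows were read from the NCBIM37 (mm9) genome with starts from the table, and exon overlaps from GENCODE vM1. Replicates of a group differed by a median of 0.036 to 0.056 log2 units over genes.

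The members, the lists of other genes and the tests were chosen with earlier results of these data known. Every member is named. Other ETS and partner genes are named where a test was passed, PU.1 targets where they were among the 2 largest passing changes in a direction, and for Spi1 and the member with the largest change the 3 most similar genes. Some items that these rules name are not reported here. Alternatives were another filter or none, only the groups compared, a replicate block, quantile normalization, median centring, a trended prior variance, a limit on the change, leaving out each library and, chosen after seeing the data, leaving out either pair of the shKDM1A IL4 libraries.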

Additional observations from a re-analysis of the deposited data

Results flagged for a closer look

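The IL4 response of Etv3 differed between the lines in a test of the difference itself, at -0.22 on the log2 scale (adjusted p = 0.0076, limma with Benjamini-Hochberg adjustment), with a rise of 0.11 in shGFP and a change of -0.11 in shKDM1A cells. Etv5 differed likewise at -0.17 (adjusted p = 0.038), and that call did not hold without any of 11 of the 16 libraries or without the filter on low values (adjusted p = 0.060).

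Etv6 in shGFP control replicate 4, at 10.04, stood apart from the other 3 libraries of its group by Dixon's criterion. Without it the log2 change of Etv6 between the lines without IL4 was -0.15 (adjusted p = 0.0025), against -0.13 with it. Gabpa in shGFP IL4 replicate 3, at 11.03, stood apart in the same way, and without it the change between the lines with IL4 was -0.14 (adjusted p = 0.0014), against -0.10. These are 2 of 40 groups of 4 values that were examined, and chance marks about 1 in 20.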

How the results depend on the processing

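Over the 10 members and 5 comparisons no change that passed the threshold, as reported or under an alternative, turned its direction. Members passing the threshold numbered 3 with only the groups compared, for IL4 in shKDM1A cells (5 as reported). All genes passing there numbered 3025, against 3497 as reported. With a trended prior variance 2 members passed for the difference of IL4 responses (Spi1 joining Etv3 at an adjusted p of 0.025), and 958 of all genes, against 791 as reported. With a change over 0.5 also required, all genes passing numbered 174, 141, 337, 319 and 17 and members 0 in every comparison. Leaving out 1 library at a time gave 5 to 6, 4 to 6, 5 to 8, 4 to 6 and 1 to 3 members, and 2975 to 3619, 3018 to 3539, 4419 to 5048, 4697 to 5293 and 530 to 1104 of all genes (IL4 in shGFP, IL4 in shKDM1A, shKDM1A without and with IL4, and the difference). For the difference, chosen after seeing the data, leaving out replicates 2 and 4 of IL4-treated shKDM1A cells gave 3 members and 2282 of all genes, and leaving out replicates 1 and 3 gave 1 and 348, against 1 and 791 as reported. Among PU.1 targets, quantile normalization reversed Csf1r between the lines with IL4 (-0.0071) and in the difference (-0.16), and the cause was not tested. It took Lyz2 between the lines without IL4 to 0, as it does any gene that keeps its rank in every library.

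Whether same-numbered libraries share a culture or day is not given in the sources used here. Their deviations correlated from -0.343 to 0.273, and 3 of 24 pairs were over 0.1. Of the 16 libraries, 6 correlated best with their own number. The split of the IL4-treated shKDM1A libraries also enters these correlations, so they cannot show whether libraries were paired by number. With the replicate block, 5, 5, 7, 5 and 1 members and 3430, 3459, 4882, 5212 and 732 of all genes passed. Between the lines without IL4, the block lost Erf (adjusted p = 0.054) and gained Elf2 (adjusted p = 0.043), and it changed no other call of a member. Centring and quantile normalization moved the median change of all genes by at most 0.0102. The share of passing genes that were higher was, as reported, with median centring and with quantile normalization, 48.9%, 49.3% and 48.6% for IL4 in shGFP cells, 50.1%, 56.5% and 51.0% for IL4 in shKDM1A cells, 51.7%, 51.8% and 43.2% between the lines without IL4, 51.3%, 56.7% and 45.0% with IL4, and 58.0%, 66.2% and 55.4% for the difference. Without the filter, Gabpa and Erf no longer passed between the lines without IL4 (adjusted p = 0.050 and 0.051).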
